A study of Homo sapiens with 6 samples.

Results

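The metallothioneins MT1E, MT1F, MT1G, MT1M, MT1X and MT2A, the zinc sensor MTF1 and the zinc exporter SLC30A1 were followed in HCT116 cells, an established human colorectal carcinoma line, given SP2509 or a knockdown of PIR. The 8 genes were found by symbol in the deposited table, 1 row each among 60675. Gene expression was measured by sequencing total RNA in 3 groups of 2 libraries. The untreated group and the group given SP2509, an inhibitor of the histone demethylase LSD1, at 3 uM for 48 h are both labelled wild type. The siPIR group carried small interfering RNA against PIR, which encodes the nuclear protein pirin, for 48 h. For siPIR the samples' treatment field names SP2509 and their titles do not, so whether those cells received the compound is not known and no dose was assigned. The labels do not say whether untreated cells received the DMSO named in the protocol, and no library with a non-targeting small interfering RNA was analysed here. The sample descriptions give the 2 libraries of a group different numbers (11 and 12 for untreated and SP2509, 10 and 11 for siPIR) that the labels do not explain. Nothing states whether the libraries came from separate cultures, so the p-values speak only of the variation among these samples, which may be technical.

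Metallothioneins are small cysteine-rich proteins that hold zinc, copper and cadmium in thiolate clusters and so buffer free metal ions in the cytosol. When free zinc rises, it binds the zinc fingers of the transcription factor MTF1, which then occupies metal response elements (MREs) in the promoters of metallothionein genes and of SLC30A1, the exporter (ZnT1) that moves zinc out of the cell across the plasma membrane. Metallothionein genes also respond to glucocorticoids and to oxidants, and in the colon they are made by the epithelium.

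All 6 metallothionein members lie in one cluster on chromosome 16, between 56608199 and 56684196 in GENCODE 29 on GRCh38. MT1G is on the minus strand and the other 5 are on the plus strand. MTF1 (37809567 to 37859620) and SLC30A1 (211571568 to 211578742) are both on the minus strand of chromosome 1. RefSeq promoter sequence (GRCh38.p14) was at hand for 4 of the 8 genes, namely MT2A, MT1X, SLC30A1 and MTF1. The 250 bases before the RefSeq start are printed for 3 of them, because these are the genes in which the MRE core was found. Capitals mark each match to TGCACNC or TGCGCNC on either strand, and sequences run 5′ to 3′ on the gene's own strand.
MT2A, chr16:56608334-56608583, plus strand: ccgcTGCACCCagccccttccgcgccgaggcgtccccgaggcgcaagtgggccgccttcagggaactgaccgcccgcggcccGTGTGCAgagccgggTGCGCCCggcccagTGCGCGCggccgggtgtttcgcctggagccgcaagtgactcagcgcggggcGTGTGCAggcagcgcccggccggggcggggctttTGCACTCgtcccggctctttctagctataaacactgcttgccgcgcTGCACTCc
MT1X, chr16:56682220-56682469, plus strand: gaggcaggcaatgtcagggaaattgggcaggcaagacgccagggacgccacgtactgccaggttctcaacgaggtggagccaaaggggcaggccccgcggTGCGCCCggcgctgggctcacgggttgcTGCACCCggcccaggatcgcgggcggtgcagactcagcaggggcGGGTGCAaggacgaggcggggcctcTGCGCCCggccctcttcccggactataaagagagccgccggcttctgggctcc
SLC30A1, chr1:211579162-211579411, minus strand: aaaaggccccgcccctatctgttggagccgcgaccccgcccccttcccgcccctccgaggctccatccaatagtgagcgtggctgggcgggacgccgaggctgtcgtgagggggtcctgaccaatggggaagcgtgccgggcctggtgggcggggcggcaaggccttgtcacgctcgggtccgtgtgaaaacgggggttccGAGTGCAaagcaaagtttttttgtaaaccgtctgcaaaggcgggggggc

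The MT2A window held 7 matches, 5 on the gene's strand and 2 on the opposite strand, from 246 bases to 2 bases before the start. It also held 1 match to the AP-1 letters TGANTCA, 104 to 98 bases before the start, and no match overlapped another. In MT1X there were 4 matches, 3 on the gene's strand and 1 on the opposite strand. The single match of SLC30A1, 49 to 43 bases before the start, read on the opposite strand. No MRE letters were found in the 250 bases before MTF1. Among 35116 promoter windows of the same length, 24.8% held at least 1 MRE match, 6.48% at least 2, 1.58% at least 3 and 0.37% at least 4, and 6.57% held the AP-1 letters. The windows of MT2A and MT1X were therefore rich in these letters and that of SLC30A1 was not; a match is a description of the sequence, not of binding.

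The libraries held 22622441 to 28816590 counts. Of all genes, 16503 passed the filter on low counts and were tested, 6 of the 8 members among them. The knockdown was visible in its target: PIR had 519 and 462 counts in untreated cells and 37 and 39 after the knockdown, a log2 change of -2.87 (SE 0.175, adjusted p = 3.39e-09, edgeR quasi-likelihood test), and 377 and 305 counts in SP2509 cells (log2 change -0.12, adjusted p = 0.406). The siPIR libraries stood apart in base composition. Over the 16345 tested genes with an annotated transcript, the log2 fold change of siPIR against untreated cells had a Spearman correlation of -0.886 with transcript GC content (a description across genes that share libraries, with no test), against -0.0879 for SP2509. The knockdown comparisons are therefore given with and without an offset that removes, per library, a smooth trend on transcript GC content and length. The offset is estimated from these libraries, so it takes away biological change tied to GC content as well, and which part of the trend is technical was not tested. With the 3 versions of the offset described below, PIR stayed lower in siPIR than in untreated cells. Its log2 change was -2.0 with the longest, -2.2 with the principal and -2.7 with the cut transcript. As a check of the labelled cell type, colorectal epithelial markers summed to 3780 to 3840 CPM (counts per 1000000, with library sizes scaled by TMM) in untreated, 4860 to 4950 in SP2509 and 1330 to 1350 in siPIR libraries. CDX1 was the only one of the 11 at 0 in all 6, and VIL1 had at most 14 counts in a library and LGALS4 at most 5. In untreated cells KRT8 (1852 CPM), KRT18 (710 CPM) and KRT19 (703 CPM) made up most of the sum. The sum thus rests mainly on keratins and by itself shows no colorectal identity. The sums carry no offset. Over the 8 tested colorectal markers the median log2 change of siPIR against untreated cells was -3.17 without an offset. It was -0.65 with the offset of the longest transcript and -0.07 with that of the main transcript cut to RefSeq gene bounds. Leukocyte markers summed to at most 1.86 CPM, endothelial markers to at most 1.83 and fibroblast markers to at most 25.7, with PTPRC, CD3E, MS4A1, CDH5, CLDN5 and COL1A2 at 0 throughout; the part of these differences in the results was not tested. In bulk RNA, fewer cells expressing a gene and less RNA per cell cannot be told apart.

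MT2A, a metallothionein made in nearly all human tissues, was the leading member in cells without the knockdown. It had 4444 and 3163 counts in the untreated libraries, 11441 and 14810 in the SP2509 libraries and 90 and 149 in the siPIR libraries. Scaled to library size these were 123 and 100 CPM, 449 and 575 CPM, and 4.70 and 7.76 CPM. The 3 groups did not overlap, with SP2509 highest and siPIR lowest in both libraries.

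MT1E was second. Its libraries stood at 60.9 and 51.3 CPM in untreated cells, 84.4 and 101 CPM with SP2509, and 21.4 and 19.1 CPM with siPIR. The order of the groups was that of MT2A, with smaller distances between them. MT1X, a widely expressed member, stood at 7.0 and 5.25 CPM in untreated cells, 14.1 and 18.4 CPM with SP2509, and 4.91 and 3.91 CPM with siPIR. Its siPIR and untreated libraries came close, the highest siPIR value lying just under the lowest untreated one. MT1F was scarce, at 87 and 104 counts (2.41 and 3.29 CPM) in untreated cells and 146 and 147 counts (5.74 and 5.70 CPM) with SP2509. In siPIR cells it had 5 and 2 counts, so its level there rests on 7 reads in all.

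MT1G and MT1M could not be tested. MT1G had 1 and 1.7 estimated counts in untreated cells, 3.28 and 2 with SP2509 and 0 in both siPIR libraries, values close to the 3 counts that a count of 0 allows. MT1M was at 0 in all 6 libraries. No fold change is given for either gene. A limit of 3 counts corresponds to 0.083 to 0.157 CPM, depending on the library, and covers counting error only. The other metallothionein genes, MT1A, MT1B, MT1H, MT1HL1, MT3 and MT4, had at most 1 count in any library, and of the 8 metallothionein pseudogenes in the table the highest was MT1DP with 16 counts. HCT116 metallothionein RNA was therefore almost entirely that of MT2A, MT1E, MT1X and MT1F.

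MTF1, the metal-sensing transcription factor, stood at 44.0 and 40.8 CPM in untreated cells, 72.0 and 72.6 CPM with SP2509, and 56.5 and 54.5 CPM with siPIR. Its groups did not overlap, and its range over the 6 libraries was in proportion the narrowest of the 6 tested members. SLC30A1 was at 48.8 and 49.3 CPM in untreated cells, 113 and 114 CPM with SP2509, and 419 and 349 CPM with siPIR. It was the one member of the 6 with its highest level in the siPIR libraries.

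**Figure D1:**
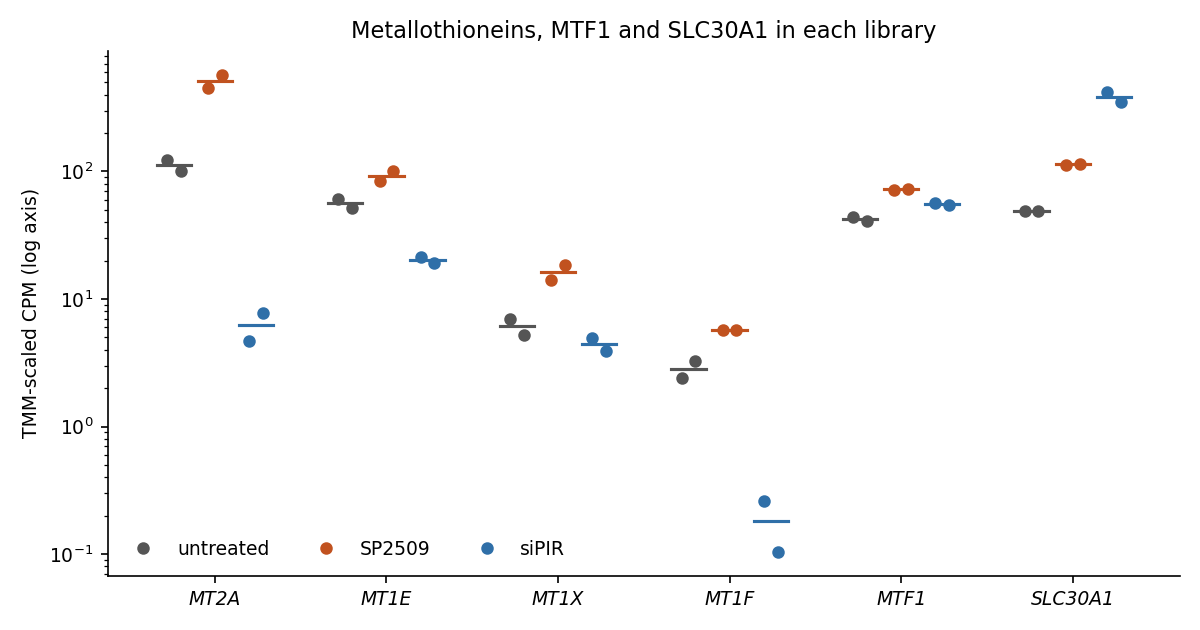
TMM-scaled CPM (log axis) of the 6 tested members in each library; points are libraries, bars the mean of 2. The 4 metallothioneins are highest with SP2509 and lowest with siPIR, MTF1 is highest with SP2509 (72.0 and 72.6 CPM), and SLC30A1 is highest with siPIR (419 and 349 CPM).

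Levels of different genes were compared only per kilobase of the main transcript, cut to the RefSeq gene bounds (401 bases for MT2A, 7937 for MTF1). In untreated cells the order was MT2A at 278 ± 40.4 CPM per kilobase (SD, n = 2), MT1E at 141 ± 17.1, MT1X at 15.2 ± 3.06, SLC30A1 at 8.96 ± 0.0697, MT1F at 6.70 ± 1.47 and MTF1 at 5.34 ± 0.284. The last pair, MT1F and MTF1, differed by less than the SD of MT1F. With SP2509 the order was unchanged, from 1277 ± 221 CPM per kilobase for MT2A to 9.11 ± 0.0487 for MTF1. In siPIR cells SLC30A1 came first at 70.2 ± 8.97 CPM per kilobase, ahead of MT1E at 50.9 ± 4.01, MT2A at 15.5 ± 5.39, MT1X at 10.9 ± 1.76, MTF1 at 6.99 ± 0.183 and MT1F at 0.43 ± 0.261. MT2A and MT1X were not separated there, given the SD of MT2A. This siPIR order carries no GC and length offset, and the cut transcripts of SLC30A1 and MT2A differ in GC content (38.0% and 55.6%). The part of the GC trend in the order was not tested. The order below MT1E depends on the length used: over the union of all annotated exons, MT1X came after SLC30A1 and MTF1 in untreated cells, at 3.45 against 8.96 and 5.29 CPM per kilobase.

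Because the members resemble one another, the authors' counting could divide or misplace reads between them. Of all 50-base stretches in the annotated transcripts of MT1X, 18.3% also occurred in a transcript of another gene, against 16.5% for MT1G, 9.87% for MT1M, 7.10% for MT1E, 3.02% for MT2A, 1.22% for MT1F, 0.64% for MTF1 and none for SLC30A1. By this share MT1X and MT1G are the least certain as single genes. The annotated transcripts include retained-intron models, the longest of MT1X having 1727 bases against 404 for its main transcript cut to RefSeq bounds. Shares over spliced transcripts alone were not taken and could be higher. The summed metallothionein level does not depend on how reads were split among these 6 genes.

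With SP2509 the metallothioneins, their activator and the exporter were all higher. All 6 tested members rose against untreated cells, 4 metallothioneins, MTF1 and SLC30A1. Of all tested genes, 68.6% were called in either direction and 33.5% were called higher, and the median log2 fold change over all genes was -0.04, against 1.21 for the 4 metallothioneins. Of the genes called, 48.8% were higher under TMM, 36.2% under upper-quartile factors and 28.3% under plain library totals.

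MT2A moved furthest, 4.59-fold (log2 fold change 2.20, SE 0.167, 95% interval 1.84 to 2.56, adjusted p = 2.03e-07, edgeR quasi-likelihood test adjusted over all genes tested). MT1X rose 2.64-fold (log2 fold change 1.40, SE 0.168, adjusted p = 9.76e-06) and MT1F 2.02-fold (1.01, SE 0.187, adjusted p = 0.00036). MT1E rose 1.65-fold (0.72, SE 0.119, adjusted p = 0.000143), less than MT1F with all libraries but not without untreated replicate 1, where MT1E was at 0.85 and MT1F at 0.80. SLC30A1 rose 2.31-fold (1.21, SE 0.109, adjusted p = 7.98e-07), and MTF1 rose 1.70-fold (0.77, SE 0.0948, adjusted p = 1.26e-05). Each of these 6 rises held under all 14 other settings run, among them the 3 offsets (72.7%, 72.8% and 72.8% of all tested genes called), and without any 1 library. Over those 14 settings the log2 fold change of MT2A lay between 1.81 and 2.37 and that of MT1E between 0.33 and 0.84. The GC and length offset moved none of them by more than 0.175 on the log2 scale.

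The sum of the 6 metallothioneins went from 177 ± 23.6 CPM in untreated cells to 627 ± 103 CPM with SP2509 (SD, n = 2), a log2 ratio of 1.82. With so few libraries an exact permutation test of a single value cannot give a p below 0.333, so none is quoted. The make-up of the sum shifted as well. MT2A supplied 63.6% and 62.6% of the metallothionein counts in the untreated libraries and 81.1% and 82.2% in the SP2509 libraries, while MT1E went from 31.5% and 32.1% to 15.2% and 14.4%. There were 2.02 and 1.95 MT2A counts per MT1E count in untreated cells and 5.32 and 5.71 with SP2509, so the 2 groups did not overlap.

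**Figure D2:**
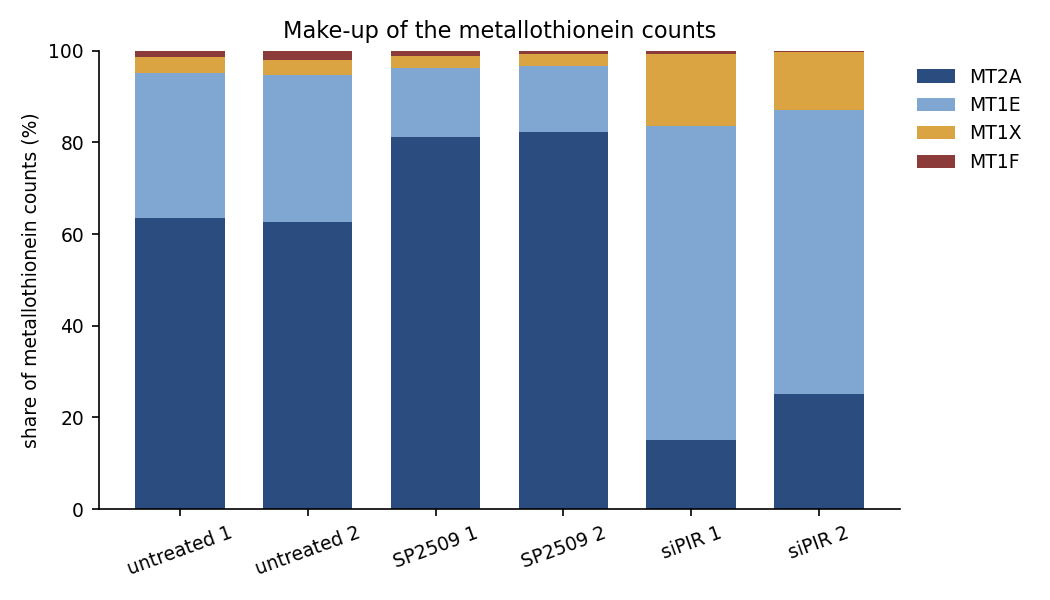
Share of each gene among the metallothionein counts of a library (percent), 1 bar per library; MT1G, at most 0.0336%, and MT1M, at 0, are not drawn. MT2A makes up 62.6% to 63.6% in untreated, 81.1% to 82.2% in SP2509 and 15.1% to 25.1% in siPIR libraries.

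The zinc transporters outside the 8 genes did not move as a block with SP2509. Of the 6 other tested ZnT exporters, 1 rose, 4 fell and 1 did not pass the test, with a median log2 fold change of -0.62. Of all tested genes 33.5% were called higher and 35.1% lower. With the offset of the longest or the cut transcript 2 exporters rose and 4 fell. All tested genes called in either direction were then 72.7% and 72.8%. The ZIP counts that follow have the same background. SLC30A5, which loads zinc into the secretory pathway, rose by 0.56 (SE 0.11, adjusted p = 0.000557), whereas SLC30A3, a vesicular exporter, fell by 1.44 (SE 0.154, adjusted p = 3.76e-06) and SLC30A9 fell by 0.69 (SE 0.114, adjusted p = 0.000153). Among the 11 tested ZIP importers, which bring zinc into the cytosol, 4 rose, 3 fell and 4 did not pass the test (median 0.17), against 6 higher and 3 lower with the offset of the longest transcript and 7 higher and 3 lower with that of the cut one. SLC39A14, an importer of zinc and iron, went from 132 and 128 CPM in untreated cells to 404 and 419 CPM with SP2509 (log2 fold change 1.66, SE 0.0947, adjusted p = 1.93e-08). SLC39A8, its close relative, went the other way, from 35.4 and 37.0 CPM to 14.8 and 13.6 CPM (log2 fold change -1.35, adjusted p = 4e-07). The fall of SLC39A10 was smaller (-0.75, adjusted p = 4.15e-05); this importer is reported to be repressed by MTF1.

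**Figure D3:**
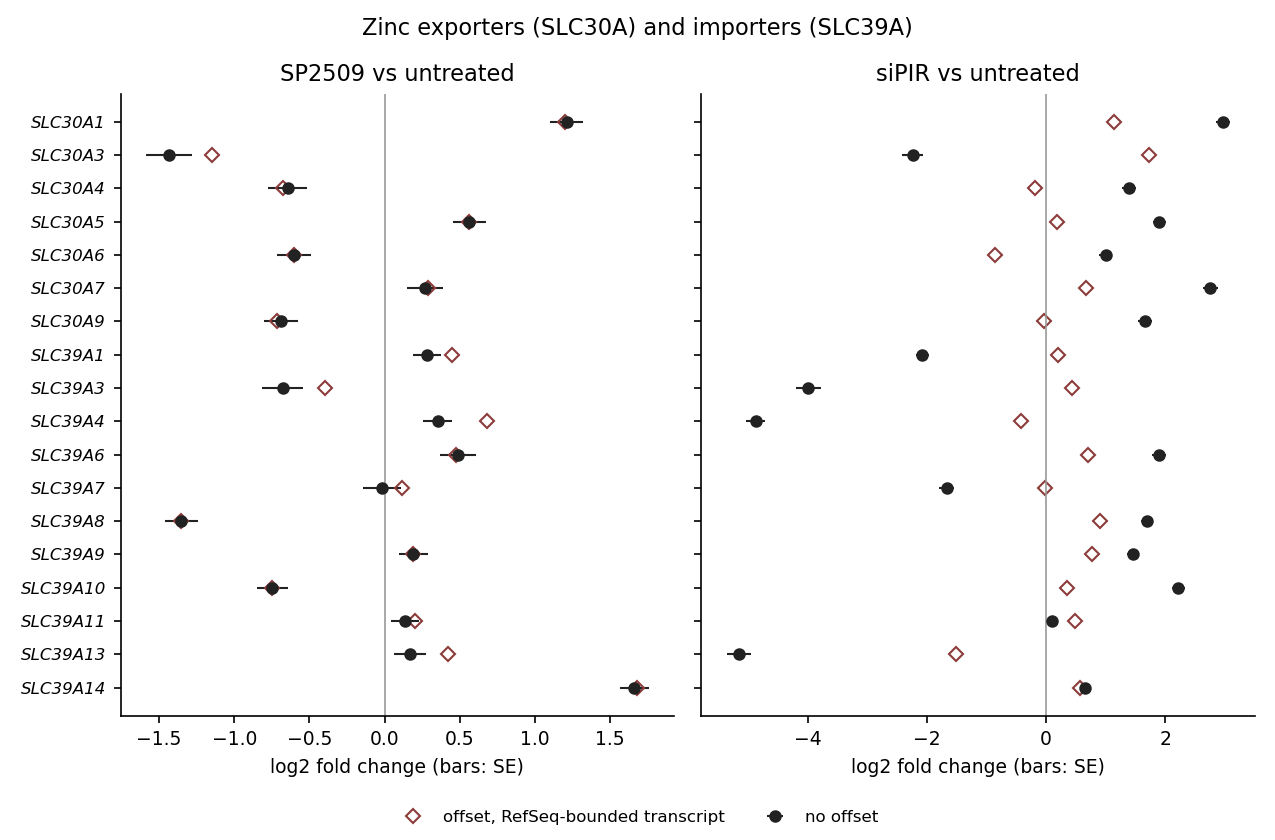
Log2 fold change of SLC30A1, the 6 other tested ZnT exporters (SLC30A) and the 11 tested ZIP importers (SLC39A) against untreated cells; filled points have no offset (bars: SE), open diamonds have the GC and length offset of the transcript cut to RefSeq bounds. With SP2509 both estimates lie close together and SLC39A14 (1.66) and SLC30A1 (1.21) are highest; with siPIR the offset moves most transporters towards 0 and SLC30A1 from 2.97 to 1.15.

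Of the other reported MTF1 targets, 3 were tested with SP2509. PGF, a placental growth factor, rose by 1.20 (SE 0.127, adjusted p = 3.38e-06), GCLC, the catalytic subunit of the enzyme that starts glutathione synthesis, rose by 1.10 (SE 0.102, adjusted p = 1.07e-06), and SLC39A10 fell as given above. Among 11 copper-handling genes, 3 rose and 5 fell (median -0.26), with the copper exporter ATP7B at -1.06 (adjusted p = 3.54e-06), the superoxide dismutase SOD1 at -0.77 (adjusted p = 1.95e-05) and SCO1 at -0.57 (adjusted p = 0.000295). Of 9 heavy metal stress genes 5 rose and 2 fell (median 0.58). Among these TXNRD1 (thioredoxin reductase) rose by 2.33, SLC7A11 (cystine import) by 2.56 and the chaperone DNAJB1 by 1.27, each with an adjusted p of at most 2.43e-07. HMOX1, the haem oxygenase induced by cadmium, had overlapping groups, at 0.04 (adjusted p = 0.792). Of 7 tested glucocorticoid-responsive genes 6 rose and 1, FKBP5, fell by 1.23 (adjusted p = 3.54e-07), with DUSP1 (2.63), ERRFI1 (1.53) and TSC22D3 (1.77) the 3 with the smallest p. In each of these lists the share called may be read against the 68.6% of all tested genes.

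The genes around the metallothionein cluster were also read. Within 250 kb of it lie 6 tested protein-coding genes that are not metallothioneins, of which 3 rose and 2 fell with SP2509 (median 0.14), beside 33.5% higher and 35.1% lower among all tested genes. HERPUD1, an endoplasmic reticulum stress gene, went from 26.8 and 27.1 CPM to 172 and 183 CPM (log2 fold change 2.72, adjusted p = 7.73e-10), and NUDT21, a factor of messenger RNA 3′ end processing, fell by 0.69 (adjusted p = 0.000465).

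In siPIR cells the deposited counts gave the opposite picture for the metallothioneins. All 4 tested ones were lower than in untreated cells and MTF1 and SLC30A1 were higher, 6 of 6 called, with 86.1% of all tested genes called in either direction, 46.9% lower and 39.3% higher. The untreated libraries are the same as in the SP2509 comparison. MT2A fell 17.9-fold (log2 fold change -4.16, SE 0.206, adjusted p = 4.88e-10, edgeR quasi-likelihood test) and MT1F fell 15.1-fold (-3.92, SE 0.396, adjusted p = 6.18e-07). MT1F went from 191 counts to 7, which as a ratio of scaled counts is 6.48% with an exact 95% interval of 2.57% to 13.6% that covers counting error only. With 1 library left out, MT1F lay between -4.68 (without siPIR replicate 1) and -3.39. MT1E fell 2.77-fold (-1.47, SE 0.129, adjusted p = 1.41e-07). For MT1X the value was -0.48 (SE 0.205, adjusted p = 0.0424), and this call was lost without untreated replicate 1 (-0.25, adjusted p = 0.347) or without siPIR replicate 2 (-0.30, adjusted p = 0.246). SLC30A1 rose 7.83-fold (2.97, SE 0.114, adjusted p = 6.57e-11), and MTF1 rose 1.31-fold (0.39, SE 0.0961, adjusted p = 0.00206), the latter turning to -0.23 (adjusted p = 0.0447) with total counts alone. The median over all genes was -0.28.

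These values have to be read beside the GC trend. In siPIR cells the median log2 change was 1.87 for genes with a transcript of 35% to 40% GC (10th to 90th percentile 0.87 to 2.70), 0.11 for those of 45% to 50% (-1.23 to 1.35), -1.08 for those of 50% to 55% (-2.56 to 0.41) and -2.49 for those of 55% to 60% (-4.08 to -0.80). SLC30A1, at 38.0% GC, lay above the 90th percentile of its class. MTF1 (46.6%) and MT1X (49.3%) lay inside theirs. MT1E sat on the edge between 2 classes, at 50%, inside the upper class and under the 10th percentile of the lower one. MT1F (52.9%) lay well below the 10th percentile of its class, and MT2A (55.6%) just below that of its own. These classes use the transcript cut to RefSeq bounds, a choice added after the data were seen. By the longest annotated transcript MT1F (58.2%) lay inside its class (10th percentile -4.29) and MT2A (53.9%) below its own (-2.76). By the principal GENCODE transcript MT1F (59.9%, 10th percentile -4.01) and MT2A (63.0%, 10th percentile -6.01) both lay inside.

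**Figure D4:**
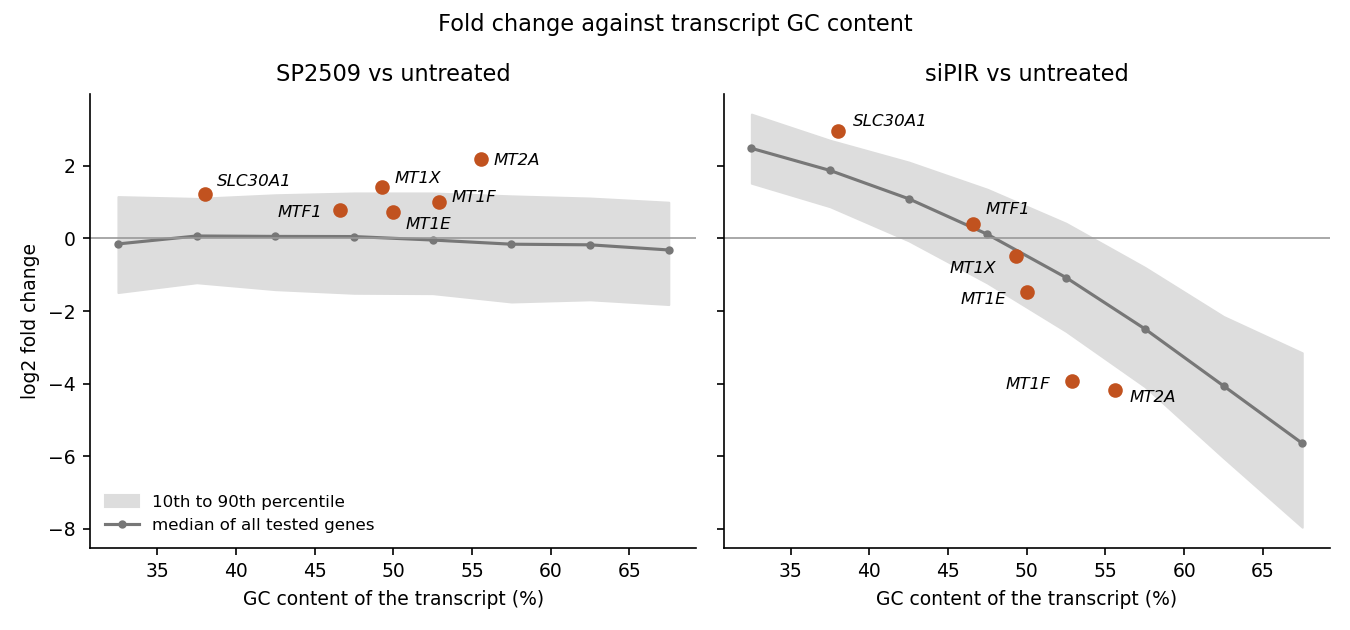
Log2 fold change of the 6 tested members (points) against the GC content of their transcript, cut to RefSeq bounds. The line is the median and the band the 10th to 90th percentile of all tested genes in GC classes. The end classes, under 35% and from 65%, are drawn at the same spacing as the rest. With SP2509 the line is near 0 throughout, and with siPIR it falls from 2.48 to -5.64, with SLC30A1 above the band and MT1F and MT2A at or under its lower edge.

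With the offset, the size of each siPIR value depended on which transcript stood for the gene. The longest annotated transcripts of MT2A, MT1F and MT1X are retained-intron models. The principal GENCODE transcripts of MT2A, MT1E and MT1F start upstream of the RefSeq start. That of MT1X also reaches past the RefSeq bounds (450 bases, 404 once cut). For these reasons 3 versions were run: the longest transcript, the principal one, and the principal one cut to RefSeq bounds. The last 2 were added after the data were seen. MT2A was at -2.69 (adjusted p = 1.22e-05) with the longest transcript, -2.33 (adjusted p = 9.57e-06) with the cut one and -0.36 (adjusted p = 0.0808) with the uncut principal one. MT1F was at -1.24 (adjusted p = 0.0402), -2.83 (adjusted p = 8.17e-06) and -0.91 (adjusted p = 0.144) in the same order. MT2A and MT1F thus stayed negative in all 3 versions and passed the test in 2 of them.

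For MT1E the 3 values were -0.12 (adjusted p = 0.386), -1.03 (adjusted p = 6.4e-07) and 1.5 (adjusted p = 5e-06), and for MT1X they were 0.98 (adjusted p = 0.00045), -0.18 (adjusted p = 0.439) and 0.13 (adjusted p = 0.598). Neither gene kept a direction. MTF1 did not pass the test in any version, at 0.16, 0.09 and 0.09, with adjusted p-values of 0.078, 0.304 and 0.331. The rise of SLC30A1 passed the test in each, at 1.20 (adjusted p = 3.65e-12), 1.15 (adjusted p = 1.76e-11) and 1.13 (adjusted p = 1.4e-11), well under the 2.97 without the offset. Of all tested genes 65.1% were called with the longest, 64.7% with the principal and 64.7% with the cut transcript, 33.2% lower and 31.6% higher in the last. With the cut transcript the members called were 4 of 6, namely MT2A, MT1F and MT1E lower and SLC30A1 higher.

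**Figure D5:**
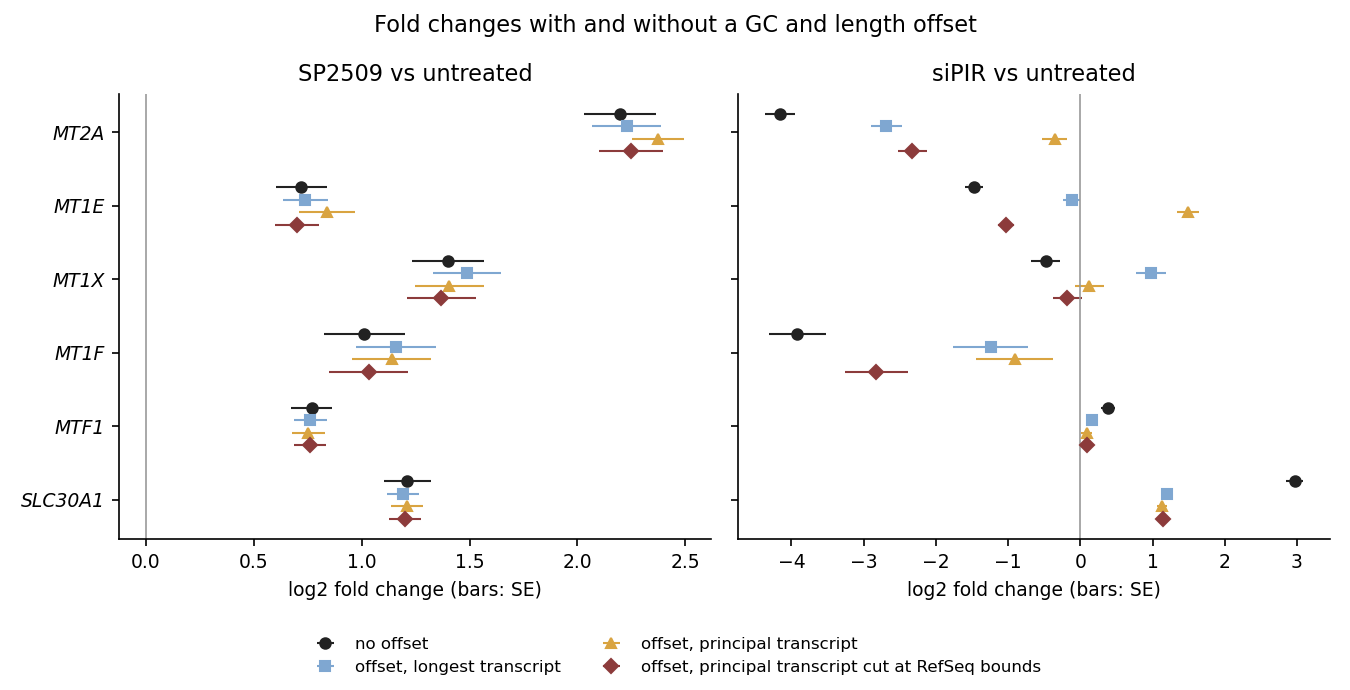
Log2 fold change (points) and SE (bars) of the 6 tested members against untreated cells, without an offset and with a GC and length offset from 3 choices of transcript. The 4 estimates lie close together with SP2509, and with siPIR they spread from -4.16 to -0.36 for MT2A and from -1.47 to 1.5 for MT1E, while SLC30A1 stays at 1.13 or above.

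The summed metallothionein level in siPIR cells was 31.1 ± 0.256 CPM (SD, n = 2), a log2 ratio of -2.50 to untreated cells with no offset applied. Its make-up was the reverse of that with SP2509. MT1E supplied 68.4% and 61.9% of the counts and MT2A 15.1% and 25.1%, with MT1X up to 15.7% and 12.7% from 3.62% and 3.29%. By the transcript cut to RefSeq bounds, MT2A has the highest GC content of the tested metallothioneins, and MT1X and MT1E have the lowest, whereas by the longest transcript MT1F has the highest (58.2% against 53.9% for MT2A). The part of the GC trend in this shift was not tested.

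In siPIR cells 5 of the 6 other tested ZnT exporters were called higher and 1 lower (median 1.53), beside 39.3% and 46.9% of all tested genes. With the offset of the longest transcript 2 were higher and 1 lower (median -0.02), and with that of the cut one 3 were higher and 1 lower (median 0.07), beside 65.1% and 64.7% of all tested genes called in either direction. SLC30A7, a Golgi exporter, was at 2.76 (adjusted p = 1.92e-10), and at 0.72 (adjusted p = 4.67e-08) and 0.68 (adjusted p = 1.72e-07) with the 2 offsets. SLC30A1 had the largest value of the tested exporters without an offset (2.97) and with that of the longest transcript (1.20). SLC30A3 was at -2.24 without an offset, -0.07 (adjusted p = 0.746) with the longest transcript and 1.73 (adjusted p = 1.47e-07) with the cut one, where SLC30A1 was at 1.15. Of the 11 ZIP importers 5 were called higher and 5 lower without an offset (median 0.09), 7 higher and 3 lower with that of the longest transcript (median 0.40), and 6 higher and 1 lower with that of the cut one (median 0.44). SLC39A13, a Golgi importer, was lower in each, at -5.16 (adjusted p = 9.31e-11), -1.35 (adjusted p = 0.000456) and -1.51 (adjusted p = 0.000132), from 15.1 CPM in untreated to 0.42 CPM in siPIR cells. It was the 1 importer called lower with the cut transcript. Without an offset its value lay inside the 10th to 90th percentile of genes of 60% to 65% GC (-6.04 to -2.15).

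Of the other MTF1 targets, GCLC was higher in siPIR cells by 2.43 (adjusted p = 1.58e-10), by 1.85 with the offset of the longest transcript (adjusted p = 5.83e-15) and by 1.74 with that of the cut one (adjusted p = 4.32e-14). SLC39A10 was at 2.22 (adjusted p = 3.79e-10), 0.40 (adjusted p = 4.74e-05) and 0.35 (adjusted p = 0.000236) in the same order. PGF was at -4.25 (adjusted p = 4.03e-09), -2.49 (adjusted p = 4.23e-07) and -0.20 (adjusted p = 0.671), so its fall passed the test with the longest transcript and not with the cut one.

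Set directly against each other, siPIR and SP2509 cells differed in all 6 tested members, with 84.3% of all tested genes called in either direction, 45.5% lower and 38.8% higher in siPIR cells. This comparison reuses the libraries of the other 2. MT2A was 82.1-fold lower in siPIR cells (log2 fold change -6.36, SE 0.217, adjusted p = 2.42e-11, edgeR quasi-likelihood test), and it stayed lower with each offset, between -4.91 and -2.73 (69.7%, 69.1% and 69.4% of all tested genes called with the longest, principal and cut transcript). MT1F was at -4.93 (SE 0.356, adjusted p = 1.98e-08) and MT1X at -1.88 (SE 0.191, adjusted p = 6.84e-07), both still lower with each offset. With 1 library left out, MT1F lay between -5.70 (without siPIR replicate 1) and -4.41. MT1E was at -2.19 (SE 0.13, adjusted p = 2.69e-09), but at 0.66 with the offset of the uncut principal transcript. MTF1 was lower by 0.38 (SE 0.0954, adjusted p = 0.00227), and by 0.60 to 0.67 with the offsets. SLC30A1 was higher by 1.76 (SE 0.108, adjusted p = 3.98e-09), a difference that came to 0.01, -0.05 and -0.08 with the offsets of the longest, the cut and the principal transcript (adjusted p = 0.946, 0.503 and 0.343). The rise of SLC30A1 against untreated cells was then 1.20 with SP2509 and 1.15 with siPIR, on the scale of the cut-transcript offset.

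The genes whose centred log2 CPM profile over the 6 libraries lay nearest to that of each of 3 members were sought among 9033 protein-coding genes with enough expression. For MT2A these were TNFRSF12A at a Euclidean distance of 0.202 (log2 units), TICAM1 at 0.551 and KIFC3 at 0.592, with transcripts of 62.6%, 63.0% and 64.3% GC against 55.6% for MT2A. TNFRSF12A, chosen by this closeness, was at -4.15 with siPIR, where genes of 60% to 65% GC had a median of -4.06. For MTF1 the nearest were HIPK2 at 0.116, TAF5L at 0.122 and AMOTL1 at 0.133. For SLC30A1 they were FCHO2 at 0.128, BIRC2 at 0.149 and FAM210A at 0.198, with 35.2%, 38.0% and 41.0% GC against 38.0%. The nearest genes of SLC30A1 thus shared its low GC content.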

How the data were processed

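RNA from 6 HCT116 libraries was analysed as deposited. Per the labels, a directional kit was used on total RNA. The authors deposited 1 table of estimated counts, in which 9.32% to 12.0% of the genes of a library had a value that was not whole. The sources used here give neither the strand setting nor the rule behind the fractions. Per the submitters' processing notes, the build was GRCh38 and the tools were edgeR 3.26.4, Subread 1.6.2, featureCounts, HISAT2, Trimmomatic 0.32 and FastQC 0.11.8.

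Counts were rounded, filtered with filterByExpr (minimum count 10), scaled to counts per 1000000 (CPM) with TMM factors (trimmed mean of M values) and fitted as 3 groups in one robust quasi-likelihood model with edgeR 4.0.16 (R 4.3.3), which left 3 residual degrees of freedom. P-values were adjusted by Benjamini and Hochberg over all 16503 tested genes, with a threshold of 0.05. Standard errors (SE) were derived from the F statistics. The GC and length offset used natural splines with 5 degrees of freedom each, fitted per library to its deviation from the mean of all libraries; 158 tested genes had no GC value. Alternatives were 3 other scalings, DESeq2 1.42.0, limma-voom (limma 3.58.1), other filters, a fit of the 4 libraries compared, blocks for the replicate and description numbers, 3 offsets and the removal of each library. Simulated data were used to test the fit without an offset and with that of the longest transcript. The GC trend put into them followed the longest transcript, so they cannot speak to the choice of transcript. Gene positions are GENCODE 29, promoters and gene bounds RefSeq GRCh38.p14.

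The members and the gene lists were chosen with earlier results of these data known. From a list of up to 6 genes every tested gene may be named, and from a longer list up to 3 with the smallest p. SLC30A3 with siPIR, HMOX1, FKBP5 and MT1DP are named outside that rule, after their values were seen. SLC30A5 with SP2509, rank 4 by p in its list, and the cell type markers are also named outside it. Of 111 list entries, 109 were in the table. A gene that the rule names is not reported here.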

Additional observations from a re-analysis of the deposited data

How the results depend on the processing

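With SP2509 all results on the members kept their direction and their side of the threshold under every setting run. With siPIR several calls depended on the GC and length offset and on the transcript used for it. Against untreated cells, MT1X turned to 0.98 with the longest transcript, with or without the replicate block (adjusted p = 0.00045 and 0.000124), and to 0.13 with the principal one; MT1E turned to 1.5 with the principal one, where 2 of 6 members were called. MTF1 turned to -0.23 with total counts alone and missed the threshold with upper-quartile scaling (0.21, adjusted p = 0.0518). Against SP2509 cells, MT1E turned to 0.66 and SLC30A1 to -0.077 with the principal transcript, and SLC30A1 to -0.055 with the cut one. MT1X against untreated cells also lost its call with DESeq2 (adjusted p = 0.199), limma-voom (0.0696) and the size factors of DESeq2 in edgeR (0.147). The cause was not tested.

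The summed metallothionein level is a log2 ratio with no test. With SP2509 against untreated cells it was 1.82, or 1.59 under upper-quartile and 1.43 under total-count scaling. With siPIR against untreated cells it was -2.50, or -2.36, -2.68 and -3.12 with RLE, upper-quartile and total-count scaling, and with siPIR against SP2509 -4.32, or -4.55 with total counts alone and -4.49 to -4.14 with 1 library left out. Over all genes the median log2 change was -0.04, -0.27 and -0.43 with SP2509, and -0.28, -0.45 and -0.89 with siPIR, under TMM, upper-quartile and total-count scaling, so levels are relative to those shifts; with siPIR the share of calls that were higher went from 45.6% to 33.9% with total counts alone.

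The labels give samples of different groups the same replicate numbers, and deviations of same-numbered samples had correlations of -0.0244, -0.0385 and 0.0815. The unexplained numbers 10 to 12 in the descriptions pair siPIR replicate 2 with replicate 1 of the other groups. With 2 libraries a group, the deviations of its replicates mirror each other. The correlations of that pairing, 0.0385 and -0.0815, are thus the values above with the sign turned and add nothing. Neither numbering is stated to mark a shared source. With the replicate block, 11179 genes were called for SP2509 against 11316 without it, 14136 against 14212 for siPIR, and 13816 against 13920 for siPIR against SP2509, and the 6 members were called in each. A block for the description number was added after the data were seen. Only siPIR replicate 1 carries the number 10, so that block takes up the whole library and the siPIR values rest on replicate 2. Against untreated cells MT2A was then at -3.83 and MT1F at -4.6 with siPIR, beside -3.82 and -4.68 without siPIR replicate 1. It is therefore no check on the spread of the siPIR libraries. Depth limits MT1F in siPIR cells, with 5 and 2 counts, and MT1G and MT1M throughout.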
